A study of Mus musculus with 2 samples.

Results

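The 9 microRNA (miRNA) genes described here form 3 paralogous clusters in the mouse genome, each with 1 gene of the miR-99/100 family, 1 of the let-7 family and 1 of the miR-125 family. They are Mir99a, Mirlet7c-1 and Mir125b-2 on chromosome 16, Mir100, Mirlet7a-2 and Mir125b-1 on chromosome 9, and Mir99b, Mirlet7e and Mir125a on chromosome 17. They were chosen by their place in GENCODE M21 from the 2202 annotated miRNA genes in the files. The rule uses no measured value, but it was set with earlier results of these data known. The data are 2 libraries of small RNA under 30 nt, made from total RNA of B6CASTF1/J mice, males aged 4 days, with left cerebral cortex as the labelled tissue. B6CASTF1/J is the first-generation cross of the inbred strains C57BL/6J and CAST/EiJ. There is 1 group, with no treatment or altered allele given in the labels. The libraries labelled biological replicate 2 and biological replicate 1 are called library 2 and library 1. Their labels number the males differently but quote the same donor, so it is not settled whether the difference between them is a difference between animals.

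A miRNA is cut from a hairpin transcript into a short strand that guides silencing of messenger RNAs, mostly through its seed, the bases near its 5′ end. In worms (Caenorhabditis elegans) lin-4, the relative of miR-125, and let-7 time larval development, and in mammals let-7 and miR-125 increase as cells differentiate and repress Lin28, whose product in turn blocks let-7 maturation. The miR-99/100 family is a relative of the Hox-linked miR-10 family and is known to repress Mtor.

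The main mature strand of each gene is printed here with its seed (bases 2 to 8) in capitals, to show which genes make different small RNAs and which make the same one. Sequences are from RefSeq on GRCm38.p6, 5′ to 3′.
miR-99a-5p (Mir99a, chr16:77598940-77598961, plus strand): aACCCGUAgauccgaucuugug
miR-100-5p (Mir100, chr9:41531437-41531458, plus strand): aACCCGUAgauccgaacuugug
miR-99b-5p (Mir99b, chr17:17830194-17830215, plus strand): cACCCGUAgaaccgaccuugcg
let-7c-5p (Mirlet7c-1, chr16:77599672-77599693, plus strand): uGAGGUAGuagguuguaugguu
let-7a-5p (listed for Mirlet7a-1, chr13:48538239-48538260, minus strand, and found whole in the Mirlet7a-2 hairpin): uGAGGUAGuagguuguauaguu
let-7e-5p (Mirlet7e, chr17:17830366-17830387, plus strand): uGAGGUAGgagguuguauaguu
miR-125b-5p (Mir125b-2, chr16:77646279-77646300, plus strand, and Mir125b-1, chr9:41581940-41581961, plus strand): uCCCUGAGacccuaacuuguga
miR-125a-5p (Mir125a, chr17:17830817-17830840, plus strand): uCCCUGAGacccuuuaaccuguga

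Within a family the seed was the same in all 3 clusters. Counting positions from 1 at the 5′ end, miR-100-5p differed from miR-99a-5p by U16A alone, while miR-99b-5p differed from miR-99a-5p by A1C, U11A, U16C and U21C. From let-7a-5p, let-7c-5p differed by A19G and let-7e-5p by U9G. miR-125a-5p is 24 nt long, against 22 nt for miR-125b-5p. The whole strand of miR-125b-5p is made by both Mir125b genes, let-7c-5p also by Mirlet7c-2, and let-7a-5p also by Mirlet7a-1. So 4 of the 9 genes (Mirlet7c-1, Mir125b-2, Mirlet7a-2 and Mir125b-1) share their main strand with another hairpin, and 5 (Mir99a, Mir100, Mir99b, Mirlet7e and Mir125a) share neither strand with any hairpin in the RefSeq table.

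This matters for the values, because reads placed at several sites were given to no gene. Such reads made up 39.8% of all reads in library 2 and 46.1% in library 1. The 4 genes with a shared strand keep an opposite (3p) strand that was found in no other hairpin, printed here with bases 2 to 8 in capitals.
let-7c-1-3p (Mirlet7c-1, chr16:77599717-77599738, plus strand): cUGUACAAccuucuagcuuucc
miR-125b-2-3p (Mir125b-2, chr16:77646318-77646339, plus strand): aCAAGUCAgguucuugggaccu
let-7a-2-3p (Mirlet7a-2, chr9:41536777-41536797, plus strand): cUGUACAGccuccuagcuuuc
miR-125b-1-3p (Mir125b-1, chr9:41581980-41582001, plus strand): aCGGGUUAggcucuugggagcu
The files count reads per hairpin and do not separate the strands, so how much of each count came from the 3p strand was not tested. Reads of the shared strand may be missing from these 4 genes, to an extent that was not measured, so their levels were not taken as comparable with those of the other 5.

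The clusters differ in how tightly they are packed and in what surrounds them (mm10, GENCODE M21). The Mir99a cluster spans 47408 bases, with 656 bases between Mir99a (chr16:77598936-77599000) and Mirlet7c-1 (chr16:77599657-77599750) and 46522 bases on to Mir125b-2 (chr16:77646273-77646343). All 3 lie in introns of the noncoding host gene Mir99ahg, on its strand, and Mir125b-2 also overlaps an exon of C130023A14Rik. The Mir100 cluster spans 50578 bases, with Mir100 (chr9:41531425-41531504), Mirlet7a-2 (chr9:41536716-41536811) and Mir125b-1 (chr9:41581926-41582002) in introns of 3110039I08Rik, the noncoding gene that RefSeq calls Mir100hg, and Mir125b-1 also lies in an exon of Gm28119. The Mir99b cluster spans 692 bases of the protein-coding gene Spaca6, named for the sperm acrosome. Mir99b (chr17:17830188-17830257) and Mirlet7e (chr17:17830352-17830444) lie in its introns and Mir125a (chr17:17830812-17830879) overlaps an exon. Mirlet7e is also covered by Gm25927, an annotated miRNA gene on the other strand.

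The libraries held 3577964 counts (library 2) and 2999032 counts (library 1) on the own strand of miRNA genes, and levels are given as counts-per-million values (CPM) of these totals. A read covers 1 mature strand, so levels were not divided by hairpin length. A count of 0 allows up to 0.838 CPM in library 2 and 1.00 CPM in library 1 (3 counts). Intervals are exact 95% Clopper-Pearson binomial intervals for counting error only, and reads copied by amplification, with no molecular barcode to tell the copies, do not each stand for a molecule. The libraries stood far apart, with a biological coefficient of variation (edgeR) of 1.24 over the 463 genes with at least 10 counts summed, which are the genes tested below. Neuron-enriched miRNAs, which mark the labelled tissue, took 0.132% of counts in library 2 and 4.27% in library 1. At least 2-fold lower in library 2 were 11 of 11 tested, against 57.9% of all tested genes. In library 2, 4 of their 15 genes were at 0 (Mir9-2 and the 3 Mir124a copies, which have 1 to 8 counts in library 1), and in library 1 none was. These 4 had too few counts to be among the 11 tested, so their zeros carry little weight. Muscle miRNAs took 15.7% in library 2 and 0.00730% in library 1. At least 2-fold higher in library 2 were 7 of 7 tested, against 21.6% of all tested genes. In library 2, 1 of 9 listed was at 0 (Mir133a-2), against 6 of 9 in library 1. Nearly all of the assigned muscle counts were from Mir206, with 559242 of 562167 in library 2 and 212 of 219 in library 1. For the markers too, reads placed at several sites were given to no gene. Several listed markers, such as Mir124a and Mir133a, have more than 1 gene copy, and strands shared between markers were not searched for. The marker percentages and zeros therefore describe assigned reads and not the amounts of these miRNAs. Hox cluster miRNAs took 1.91% in library 2 and 0.0228% in library 1, with 5 of 5 at least 2-fold higher (21.6% of tested genes). Vascular miRNAs took 4.70% in library 2 and 1.71% in library 1, with 1 of 3 at least 2-fold higher (21.6% of tested genes). By the neuron-enriched, muscle and Hox markers library 2 goes against its cortex label. Every value of library 2 over library 1 therefore compares the libraries as labelled and not 2 samples shown to be of the same tissue. The part of these differences in the results for the clusters was not tested. In bulk tissue, fewer cells of a type and less RNA per cell cannot be told apart.

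The 3 clusters were abundant in both libraries and took a smaller share in library 2. Their 9 genes held 101790 counts, 2.84% of the total (interval 2.83 to 2.86), in library 2, and 382444 counts, 12.8% (12.7 to 12.8), in library 1, a 4.48-fold lower share in library 2. Over both libraries they averaged 77986 ± 70055 CPM (SD, n = 2). All 9 genes were lower in library 2 by CPM, as were 70.6% of the 463 tested genes. At least 2-fold lower were 8 of 9, with Mirlet7a-2 the exception at 1.43-fold, against 57.9% of tested genes, and 0 of 9 were at least 2-fold higher, against 21.6%. The median log2 ratio (library 2 over library 1, no prior) of tested genes was -1.67. The members had a median of -2.53 and ranged from -3.58 (Mir125b-1) to -0.51 (Mirlet7a-2). At least 4-fold lower were 6 of the 9, against 44.7% of tested genes, with Mir99a just past that fold at 4.01. There is 1 library on each side, so no test over samples could be run and these differences have no replicate check.

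The size of each difference depends on the scaling. With TMM, which assumes that most genes do not change, every log2 ratio lies 1.40 higher and the median of tested genes is -0.27. Then 8 of the 9 genes were still below 0, against 52.9% of tested genes, while Mirlet7a-2 turned to 0.89. At least 2-fold lower were 5 (37.6% of tested genes), and 0 were at least 2-fold higher (34.6%). With DESeq2 size factors, which shift every ratio by 1.55, 7 of 9 were below 0 (51.6% of tested genes), 4 were at least 2-fold lower (35.9%) and 1, Mirlet7a-2, at least 2-fold higher (36.9%). Mir125a lay at -0.02 with TMM and at 0.13 with DESeq2, so its direction turned with the scaling. At least 4-fold lower was 1 of 9 members, Mir125b-1, with TMM (27.2% of tested genes) and with DESeq2 (25.5%). Ratios between the members inside a library do not depend on scaling.

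**Figure D1:**
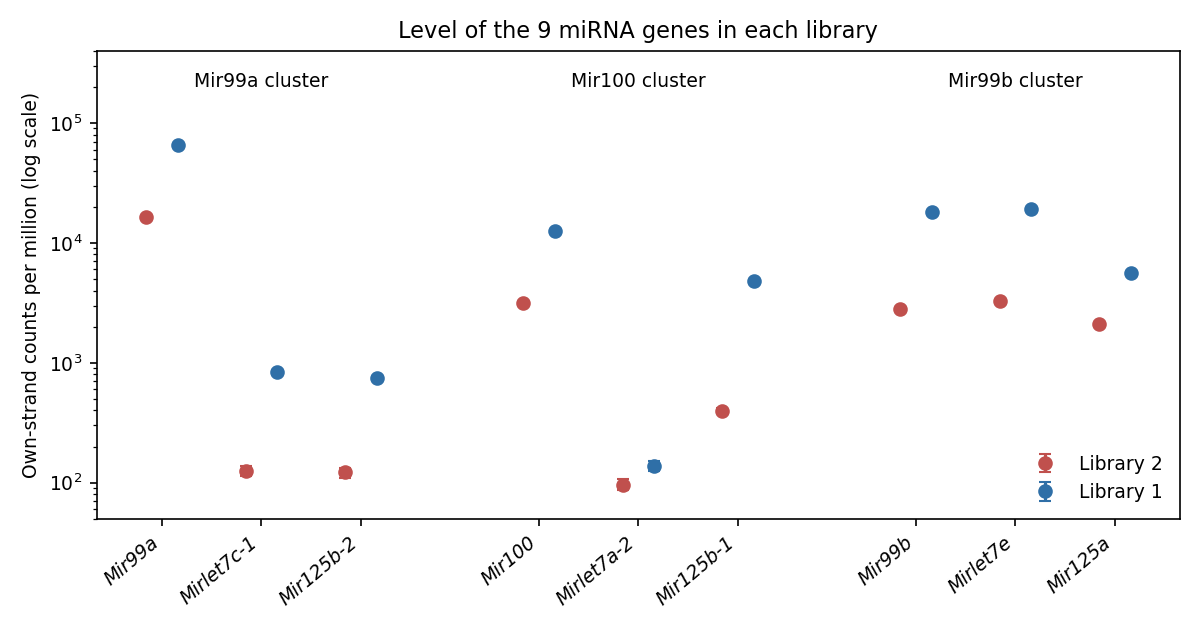
Own-strand CPM (log axis) of the 9 genes in library 2 (red) and library 1 (blue), grouped by cluster, with exact 95% binomial intervals that are mostly smaller than the points. Each gene has the lower point in library 2, and Mir99a is the highest member in both, at 16385 CPM in library 2 and 65691 CPM in library 1.

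The miR-99/100 genes carried most of the assigned reads of the clusters, 78.4% in library 2 and 75.5% in library 1. All 3 share no strand with another hairpin, while reads of shared strands may be missing from 4 of the let-7 and miR-125 genes. These percentages therefore describe the assigned reads and not the amounts of the families. Mir99a had 16385 CPM in library 2, where it ranked 18 among all miRNA genes, and 65691 CPM in library 1, where it ranked 4. That is a log2 ratio of -2.003 (interval -2.02 to -1.99). Mir100 had 3146 CPM in library 2 (rank 49) and 12489 CPM in library 1 (rank 16), a log2 ratio of -1.99 (-2.02 to -1.96). The pair, whose mature strands differ at 1 base but which lie on different chromosomes, thus kept nearly the same proportion: Mir99a outnumbered Mir100 by 5.21 (interval 5.10 to 5.31) in library 2 and by 5.26 (5.20 to 5.32) in library 1. Mir99b was further down, with 2787 CPM in library 2 (rank 54) and 18137 CPM in library 1 (rank 10), a log2 ratio of -2.70 (-2.73 to -2.67). Mir99a therefore stood at 5.88 times Mir99b in library 2 (5.76 to 6.01) and 3.62 times in library 1 (3.59 to 3.66).

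Of the let-7 genes of the clusters, Mirlet7e held most of the assigned reads, with the limit that reads of the strands Mirlet7c-1 and Mirlet7a-2 share with other hairpins may be missing from their counts. Mirlet7e, which shares its strand with no other hairpin, had 3303 CPM in library 2 (rank 48) and 19130 CPM in library 1 (rank 9), a log2 ratio of -2.53 (-2.56 to -2.51). This value needs the strand: in the unstranded column Mirlet7e has 0 counts in both libraries, because Gm25927 overlaps it. Mirlet7e held 93.7% of the counts of the let-7 members in library 2 and 95.2% in library 1. Mirlet7c-1 had 449 counts (125 CPM) in library 2 and 2501 counts (834 CPM) in library 1, a log2 ratio of -2.73 (-2.88 to -2.59). Mirlet7a-2 had 344 counts (96.1 CPM) in library 2 and 412 counts (137 CPM) in library 1, a log2 ratio of -0.51 (-0.73 to -0.30). By total counts it was the member with the smallest difference, while with TMM and with DESeq2 size factors that was Mir125a. Of all tested genes, 63.9% had a ratio as low or lower. Mirlet7c-1 outnumbered Mirlet7a-2 by 1.31 in library 2 (1.13 to 1.51) and by 6.07 in library 1 (5.47 to 6.75).

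The miR-125 genes also differed in how far they moved. Mir125b-1 had 1427 counts (399 CPM) in library 2 and 14300 counts (4768 CPM) in library 1, the most negative ratio of the 9 genes, at -3.58 (-3.66 to -3.50) on the log2 scale, a level 12.0-fold lower in library 2. Even so, 25.1% of tested genes had a ratio as low or lower. Mir125b-2, whose main strand is the same, had 435 counts (122 CPM) in library 2 and 2226 counts (742 CPM) in library 1, a log2 ratio of -2.61 (-2.76 to -2.46). Mir125a had 2086 CPM in library 2 and 5593 CPM in library 1, a log2 ratio of -1.42 (-1.46 to -1.38). Mir125a accordingly made up 80.0% of the miR-125 counts in library 2 (79.2 to 80.8) and 50.4% in library 1 (49.8 to 50.9), while Mir125b-1 made up 15.3% in library 2 and 42.9% in library 1. Reads of the shared miR-125b strand may be missing from both Mir125b genes, so these percentages describe the assigned reads and not the amounts of miR-125a and miR-125b.

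**Figure D2:**
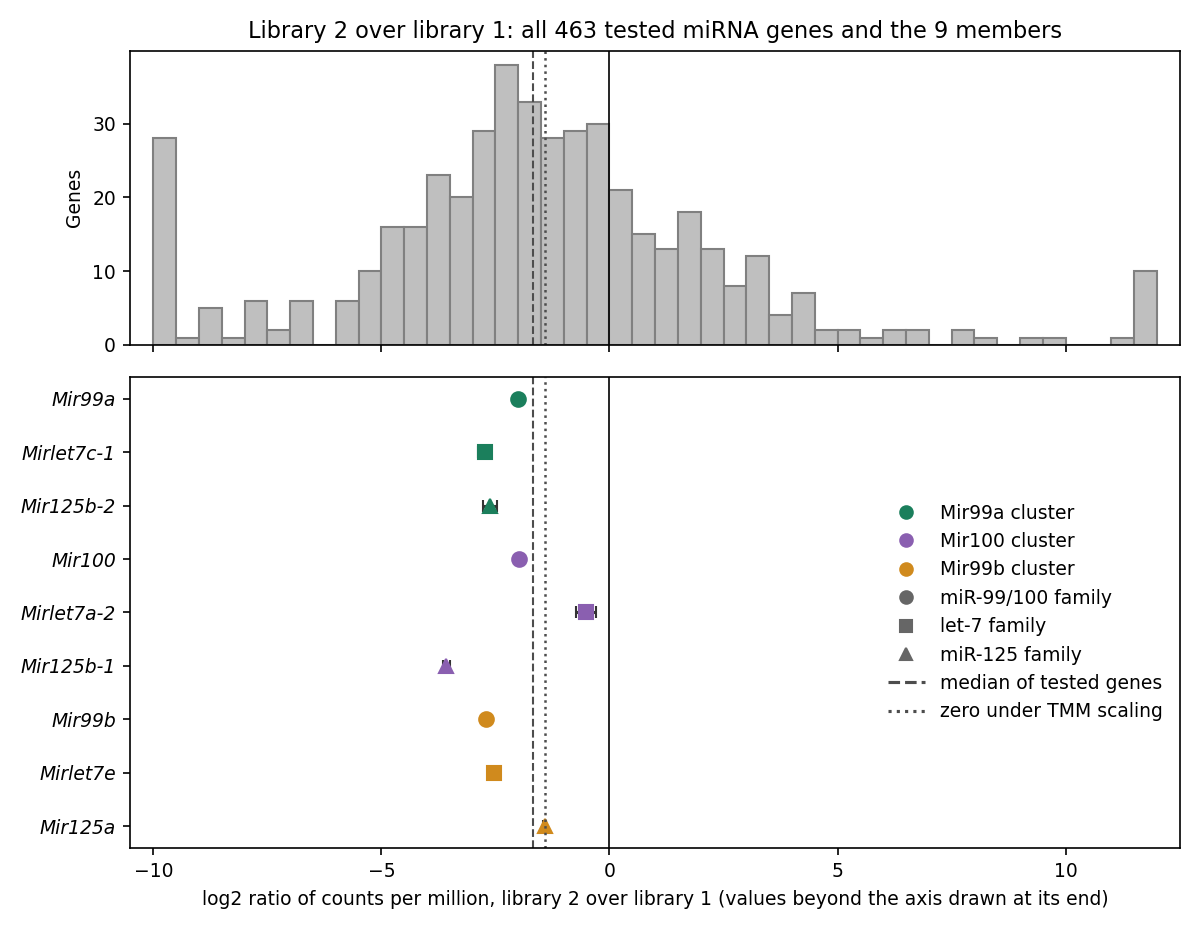
Top, number of tested miRNA genes by log2 ratio of CPM (library 2 over library 1, 463 genes, with ratios beyond the axis drawn at its end). Bottom, the same ratio for the 9 members with exact 95% intervals, coloured by cluster and shaped by family. Of the 9 members, 7 lie left of the median of tested genes (dashed, -1.67), and Mir125a and Mirlet7a-2 lie right of it.

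Summed by cluster, the order of the assigned reads was the same in both libraries. Reads of shared strands may be missing from Mirlet7c-1, Mir125b-2, Mirlet7a-2 and Mir125b-1, while no gene of the Mir99b cluster shares a strand. The sums may therefore not be equally complete, and their order describes the assigned reads only. The Mir99a cluster led with 16632 CPM in library 2 and 67267 CPM in library 1, a log2 ratio of -2.02 (-2.03 to -2.003). The Mir99b cluster followed with 8176 CPM in library 2 and 42861 CPM in library 1, a log2 ratio of -2.39 (-2.41 to -2.37). The Mir100 cluster was lowest, with 3641 CPM in library 2 and 17395 CPM in library 1, a log2 ratio of -2.26 (-2.28 to -2.23). Of the counts of all 9 genes, the Mir99a cluster held 58.5% in library 2 and 52.7% in library 1. The Mir99b cluster held 28.7% in library 2 and 33.6% in library 1, and the Mir100 cluster 12.8% in library 2 and 13.6% in library 1. Over the 5 genes that share no strand, the Mir100 cluster (Mir100 alone) held 11.4% in library 2 and 10.3% in library 1, so the direction for this cluster turns with that choice. The intervals of these percentages did not overlap between the libraries for any cluster, but they cover counting error alone, and the spread between animals was not measured.

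Inside the clusters the proportions moved most in the Mir100 cluster. Mir100 made up 86.4% of it in library 2 (85.8 to 87.0) and 71.8% in library 1 (71.4 to 72.2). Mir125b-1 made up 11.0% in library 2 and 27.4% in library 1, and Mirlet7a-2 2.64% in library 2 and 0.790% in library 1. In assigned reads Mir100 thus outnumbered its cluster neighbour Mir125b-1 by 7.89 in library 2 (7.47 to 8.34) and by 2.62 in library 1 (2.57 to 2.67). Reads of the strands that Mir125b-1 and Mirlet7a-2 share with other hairpins may be missing. The values for this cluster therefore do not give the proportions of the mature miRNAs. The assigned reads of the Mir99a cluster were nearly all from Mir99a, with 98.5% in library 2 and 97.7% in library 1. Here too, reads of the strands that Mirlet7c-1 and Mir125b-2 share with other hairpins may be missing, so Mir99a may be overstated. In assigned reads these other members kept their proportion. Mirlet7c-1 stood at 1.03 times Mir125b-2 in library 2 (0.903 to 1.18) and at 1.12 times in library 1 (1.06 to 1.19).

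No single member held most of the counts of the Mir99b cluster. Mirlet7e held 40.4% in library 2 and 44.6% in library 1. Mir99b held 34.1% in library 2 and 42.3% in library 1, and Mir125a 25.5% in library 2 and 13.0% in library 1. Mir99b and Mirlet7e, 94 bases apart, stood at a ratio of 0.844 in library 2 (0.822 to 0.867) and 0.948 in library 1 (0.937 to 0.959). Mirlet7e outnumbered Mir125a by 1.58 in library 2 (1.54 to 1.63) and by 3.42 in library 1 (3.36 to 3.48). All 3 genes of this cluster have strands found in no other hairpin.

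**Figure D3:**
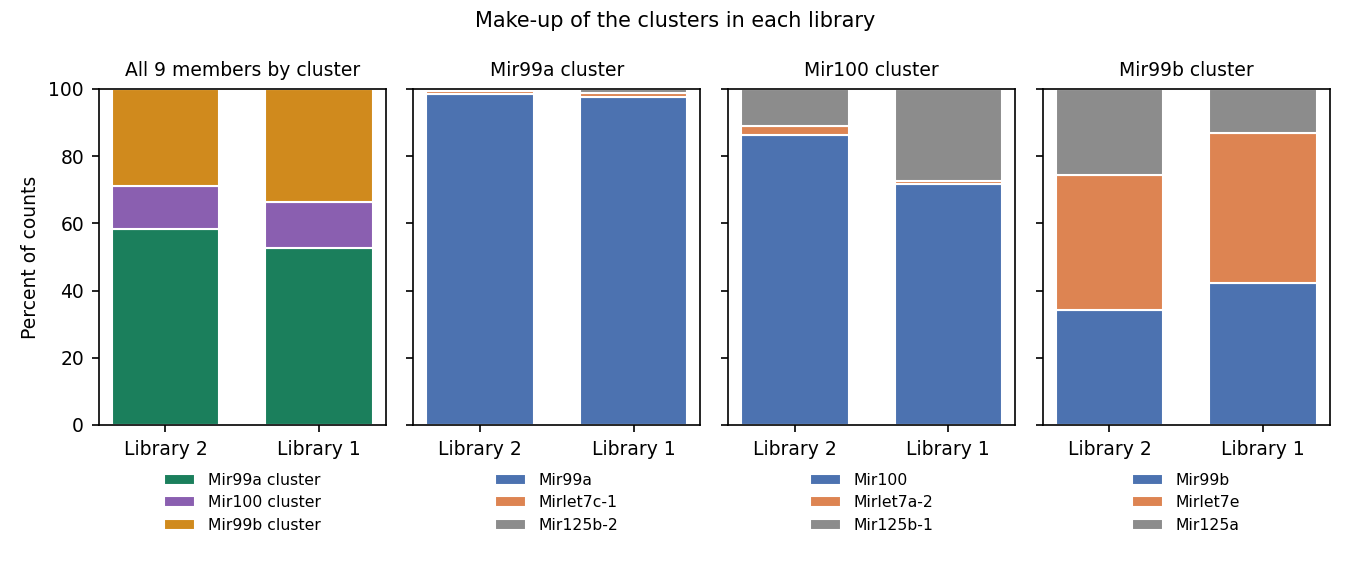
Percent of counts by cluster over all 9 genes (left) and by member inside each cluster (right panels), with library 2 left of library 1 in each pair of bars. In the Mir100 cluster Mir125b-1 takes 11.0% in library 2 and 27.4% in library 1. In the Mir99b cluster Mir125a takes 25.5% in library 2 and 13.0% in library 1. Bars show assigned reads, and reads of shared strands may be missing from Mirlet7c-1, Mir125b-2, Mirlet7a-2 and Mir125b-1.

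Over all 36 pairs of members, the ratio inside a library moved between the libraries by a median of 0.86 on the log2 scale, without regard to direction, and by up to 3.06 (Mirlet7a-2 against Mir125b-1). Intervals overlapped for 5 pairs: Mir99a with Mir100, Mirlet7c-1 with Mir99b, Mirlet7c-1 with Mir125b-2, and Mir125b-2 with each of Mir99b and Mirlet7e. Only 1 of these pairs comes from the same cluster and 1 from the same family, and the 3 others join different clusters and families. Apart from Mir99a with Mir100, each overlapping pair includes Mirlet7c-1 or Mir125b-2. These had only 449 and 435 counts in library 2, which widens their intervals. Pairs of genes outside the clusters were not compared, so the median shift and the overlaps are not shown to be particular to the members.

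Relatives elsewhere in the genome gave other values. Of the 11 let-7 genes outside the clusters, 10 had enough counts, of which 5 were at least 2-fold lower in library 2 and 0 at least 2-fold higher, against 57.9% and 21.6% of all tested genes. With TMM 2 of the 10 were at least 2-fold lower (37.6% of tested genes) and 2 at least 2-fold higher (34.6%). Their median log2 ratio was -0.94 (0.46 with TMM), with a range from -4.02 to 0.14 by total counts. The other source of let-7c, Mirlet7c-2, had 627 counts in library 2 and 8537 in library 1, a log2 ratio of -4.02 against -2.73 for Mirlet7c-1. The other source of let-7a, Mirlet7a-1, had 391 counts in library 2 and 1076 in library 1, a log2 ratio of -1.72 against -0.51 for Mirlet7a-2. In assigned reads the ratio of Mir125b-2 to Mir125b-1, which make the same main strand, moved by 0.97 on the log2 scale between the libraries. Reads of the strand shared within each of these pairs may be missing, since reads placed at several sites were given to no gene. The values therefore do not show how much of let-7c, let-7a or miR-125b came from each source. The 2 miR-10 genes, relatives of miR-99/100 that lie in Hox clusters, ran the other way. Both were at least 2-fold higher in library 2, as were 21.6% of all tested genes. They are among the Hox markers by which library 2 goes against its label, so they are not a separate contrast. Mir10a had 1415 CPM in library 2 and 21.7 CPM in library 1 (log2 6.03), and Mir10b 4790 CPM in library 2 and 192 CPM in library 1 (log2 4.64). Their seed, bases 2 to 8 of miR-10a-5p and miR-10b-5p, is not that of miR-99/100.
miR-10a-5p (Mir10a, chr11:96317186-96317208, plus strand): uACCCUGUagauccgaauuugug
miR-10b-5p (Mir10b, chr2:74726074-74726096, plus strand): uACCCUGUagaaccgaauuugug

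**Figure D4:**
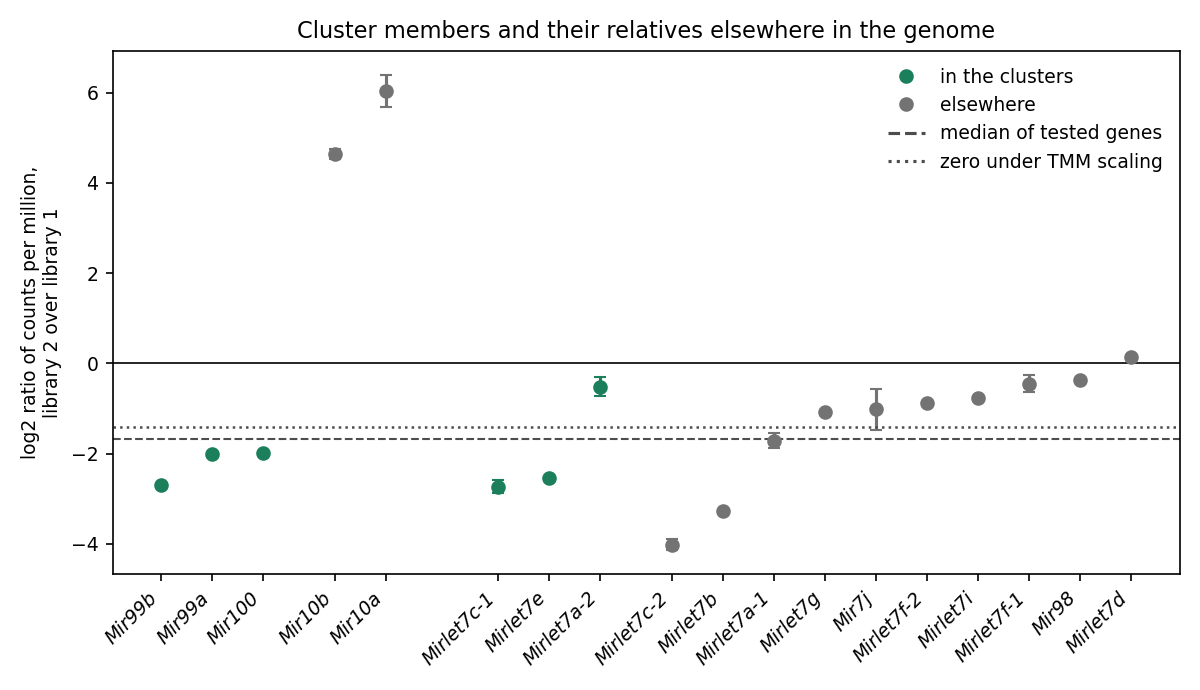
Log2 ratio of CPM (library 2 over library 1) with exact 95% intervals for the miR-99/100 members and the miR-10 genes (left) and for the let-7 genes (right), members in green and genes elsewhere in grey. The miR-10 genes lie at 4.64 and 6.03, while the miR-99/100 members lie between -2.70 and -1.99.

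Among 178 other genes with at least 1000 counts summed, those with the ratio nearest to that of the Mir99a cluster were Mir484, Mir361 and Mir17. Nearest to the Mir100 cluster were Mir350, Mir185 and Mir181b-2, and nearest to the Mir99b cluster Mir1839, Mir298 and Mir150. Their log2 ratios lay within 0.073 of that of the cluster. This likeness is 1 ratio from 2 libraries.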

How the data were processed

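Small RNA libraries from 2 samples of 1 group, both labelled cortex, were analysed. The authors deposited raw read counts per miRNA gene, 1 table per library, in 3 columns, and text deposited beside the tables names mm10 and GENCODE M21. The sources used here do not name the aligner or counter, and the layout (either strand, own strand, opposite strand) is that of STAR gene counts. The own-strand column was used. Reads that name no gene (unplaced, at several sites or outside genes) stayed out of library sizes: 6.11%, 39.8% and 1.47% of reads in library 2, and 18.4%, 46.1% and 5.55% in library 1.

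All 2202 identifiers matched GENCODE M21. CPM, ratios (library 2 over library 1) and exact 95% Clopper-Pearson intervals were computed from the counts, with a call at 2-fold over genes with at least 10 counts summed (463). The edgeR quasi-likelihood test needs replicates on each side and was not run. Their chi-square per degree of freedom was 5667, far above sampling noise, and the libraries counted as 2 samples. Strands were searched whole in the RefSeq miRNA table, where all 9 members have an entry. Alternatives were TMM and DESeq2 scaling, the unstranded column, other filters, a 4-fold minimum, a prior of 1 CPM, totals without each library's most abundant gene, only genes with no shared strand, and each library alone. The ratio and scaling steps were tested on simulated data. The simulated counts held counting error only and as many raised as lowered genes. They therefore check the computation and do not show how well TMM or the intervals fit these libraries. Members, lists and the rule for named genes (members, relatives, copies and the 3 nearest ratios per cluster) were chosen with earlier results of these data known. Software was pandas 2.3.3, scipy 1.17.1, numpy 2.4.6 and matplotlib 3.10.9 under Python 3.11.15, with DESeq2 1.42.0 and edgeR 4.0.16 under R 4.3.3.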

Additional observations from a re-analysis of the deposited data

Results flagged for a closer look

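The column of reads opposite to a gene's strand was not used for levels. At Gm25927, the annotated miRNA gene that covers Mirlet7e on the other strand, it held 11817 counts in library 2 and 57372 in library 1, the same numbers as Mirlet7e on its own strand, while Gm25927 itself had 0 own-strand counts in both. At the 9 members the opposite-strand column held 0 counts in both libraries.

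Reads placed at several sites were also outside the levels. They numbered 2706949 in library 2 and 4626252 in library 1, against 101790 in library 2 and 382444 in library 1 given to the 9 members. Which miRNAs they came from was not tested.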

How the results depend on the processing

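With TMM the log2 ratios of the Mir99a, Mir100 and Mir99b clusters were -0.61, -0.85 and -0.99, with DESeq2 size factors -0.46, -0.70 and -0.84, with the unstranded column -1.92, -2.16 and -2.19, and with totals lacking the most abundant gene of each library -1.83, -2.07 and -2.20. The Mir100 cluster without its members that share a strand gave -1.99. Every cluster ratio stayed below 0 in these settings and with a prior of 1 CPM. Members at least 2-fold lower numbered 5 with TMM and 4 with DESeq2, and 1 (Mirlet7a-2, at 1.04) was at least 2-fold higher with DESeq2, where Mir125a reversed to 0.13. Tested genes at least 2-fold lower made up 37.6% with TMM and 35.9% with DESeq2, and those at least 2-fold higher 34.6% with TMM and 36.9% with DESeq2. These shifts follow from the scaling itself.

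Without strand, Mirlet7e had 0 counts in both libraries, since its reads also fall on Gm25927. The Mir99a, Mir100 and Mir99b clusters then held 66.1%, 14.5% and 19.4% of member counts in library 2 and 62.1%, 16.0% and 21.9% in library 1. With only the 5 genes that share no strand they held 59.1%, 11.4% and 29.5% in library 2 and 54.3%, 10.3% and 35.4% in library 1, which turns the direction for the Mir100 cluster (12.8% in library 2 and 13.6% in library 1 over all 9 genes). The mean of the clusters summed ranged from 28449 CPM (library 2 alone) to 127522 CPM (library 1 alone). No paired analysis was possible because there is 1 group, and a ratio between libraries cannot be had from 1 library. With 1 library on each side, depth limits only the genes with few assigned reads (Mirlet7a-2, Mirlet7c-1 and Mir125b-2), and the spread between animals was not measured.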
